A study of Mus musculus with 9 samples.

Results

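The MAPEG family (membrane-associated proteins in eicosanoid and glutathione metabolism) was followed through mouse breast adenocarcinomas by RNA sequencing. Its 6 genes, Mgst1, Mgst2, Mgst3, Alox5ap, Ltc4s and Ptges, were taken by name from a table of 49585 genes, each through its Ensembl identifier, and all 6 were found and were abundant enough to be tested. There were 6 tumours treated with AAV-∆mut-p53, an adeno-associated virus group in which the series' design text calls mutant p53 deleted, and 3 treated with AAV-Control. All of the mice, controls included, carried K14-Cre, the Trp53 alleles labelled wm-R172H/fl and Rosa26 LSL CAS9-P2A-EGFP/+. R172H is a missense change in the part of p53 that binds DNA. K14-Cre is active in keratin 14-positive epithelium, whereas the RNA came from whole tumours and so from every cell type in them. Virus was given on days 0, 3 and 8, and spontaneous tumours were collected when each animal met its euthanasia criteria. Ages are not given, and a pair of AAV-∆mut-p53 samples, numbers 4 and 5 here, have titles with the same number, followed by T1 and T2. No label says which samples came from separate animals, so p-values measure the spread between these samples.

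MAPEG proteins are small enzymes and helper proteins that sit in the membranes of the endoplasmic reticulum and nuclear envelope, and most of them bind glutathione. Mgst1, Mgst2 and Mgst3 encode microsomal glutathione transferases, which can conjugate reactive compounds to glutathione or reduce lipid hydroperoxides. Alox5ap encodes FLAP, which presents arachidonic acid to 5-lipoxygenase. Ltc4s encodes leukotriene C4 synthase, which joins glutathione to leukotriene A4, and Ptges encodes the inducible microsomal prostaglandin E synthase. FLAP and leukotriene C4 synthase are best known from myeloid cells and mast cells, and Mgst1 from liver and epithelia.

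The start regions of 3 members are shown because these genes had different ranges among the tumours: Mgst2 had the widest, and Mgst3 and Ptges were detected at moderate levels in all 9. Each window holds the 250 bases before the RefSeq start on GRCm38.p6, 5′ to 3′ on the gene's strand. Capitals mark every match, on either strand, to 5 motifs. They include the GC box with the letters GGGCGG, the AP-1 site with TGACTCA and the antioxidant response element core with TGACNNNGC, where N is any base. The p53 half-site was searched as RRRCWWGYYY, where R is A or G, W is A or T and Y is C or T. For the TATA box the letters searched were TATAAA. The Mgst2 window is chr3:51660929-51661178 on the plus strand. The Mgst3 window is chr1:167393842-167394091 and the Ptges window chr2:30903298-30903547, both on the minus strand. The Mgst3 window lies directly before the annotated gene. The Mgst2 and Ptges windows lie inside their annotated genes (51660360 to 51682677 and 30889471 to 30929863), so those RefSeq starts are not the outermost annotated ones.
Mgst2: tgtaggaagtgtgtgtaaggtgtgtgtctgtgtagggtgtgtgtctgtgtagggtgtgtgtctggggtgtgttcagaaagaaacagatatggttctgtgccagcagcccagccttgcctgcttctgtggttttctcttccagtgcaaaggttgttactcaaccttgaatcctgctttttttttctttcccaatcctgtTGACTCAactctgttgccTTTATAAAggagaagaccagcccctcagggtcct
Mgst3: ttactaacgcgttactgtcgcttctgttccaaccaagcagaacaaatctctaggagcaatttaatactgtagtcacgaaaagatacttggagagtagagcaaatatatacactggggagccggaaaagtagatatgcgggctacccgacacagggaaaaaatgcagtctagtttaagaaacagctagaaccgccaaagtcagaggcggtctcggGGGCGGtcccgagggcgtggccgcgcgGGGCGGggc
Ptges: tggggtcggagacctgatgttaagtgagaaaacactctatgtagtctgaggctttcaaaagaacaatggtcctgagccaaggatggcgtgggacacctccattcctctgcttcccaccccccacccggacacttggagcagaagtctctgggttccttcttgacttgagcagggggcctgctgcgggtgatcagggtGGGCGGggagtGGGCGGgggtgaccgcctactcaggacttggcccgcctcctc

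The Mgst2 window held no GC box. It held a TATA box that reads on both strands, 26 bases before the start on the plus strand and overlapping a second match on the other, and an AP-1 site 45 bases before the start. Mgst3 had 2 GC boxes, 30 and 3 bases before the start, and Ptges had 2, at 47 and 36 bases, and neither had any of the other motifs. Among 32817 RefSeq windows of the same length, 32.7% held a GC box, 12.4% a TATA box, 4.46% an AP-1 site, 10.2% an antioxidant response element core and 7.12% a p53 half-site. One of the windows of Mgst1 held 1 GC box and 1 antioxidant response element core, the first 4 bases and the other 47 bases before the start, and is not printed because annotated exons cover 211 of its 250 bases. No p53 half-site was matched in the windows of Mgst1, Mgst2, Mgst3, Ltc4s or Ptges. Alox5ap had no window among those available and was not searched. A match describes the letters only, and a missing match says nothing of whether a factor binds.

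Totals ran from 18581545 to 24567423 counts in AAV-∆mut-p53 tumours and from 26280250 to 30953250 in AAV-Control tumours. Levels below are CPM, which are counts scaled to a common library size after TMM normalisation between libraries. The targeted gene, Trp53, was at 13.1 to 41.5 CPM in AAV-∆mut-p53 tumours and 39.3 to 48.6 CPM in AAV-Control tumours with a log2 fold change of -0.42 that missed the threshold in edgeR (false discovery rate, FDR = 0.78). Its counts do not separate edited from unedited RNA. AAV-∆mut-p53 2 stood apart from the rest. Its 9 skeletal muscle markers summed to 40069 CPM, against 38.0 to 397 CPM in the other AAV-∆mut-p53 tumours and 47.0 to 150 CPM in AAV-Control tumours, and it had the lowest sum of luminal epithelial markers, 361 CPM. Krt8, a luminal keratin gene, was at 41.9 to 1416 CPM in AAV-∆mut-p53 and 215 to 593 CPM in AAV-Control tumours. Krt14, the gene whose promoter drives the Cre, was at 8.92 to 860 CPM in AAV-∆mut-p53 and 3.90 to 52.9 CPM in AAV-Control tumours.

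**Figure D1:**
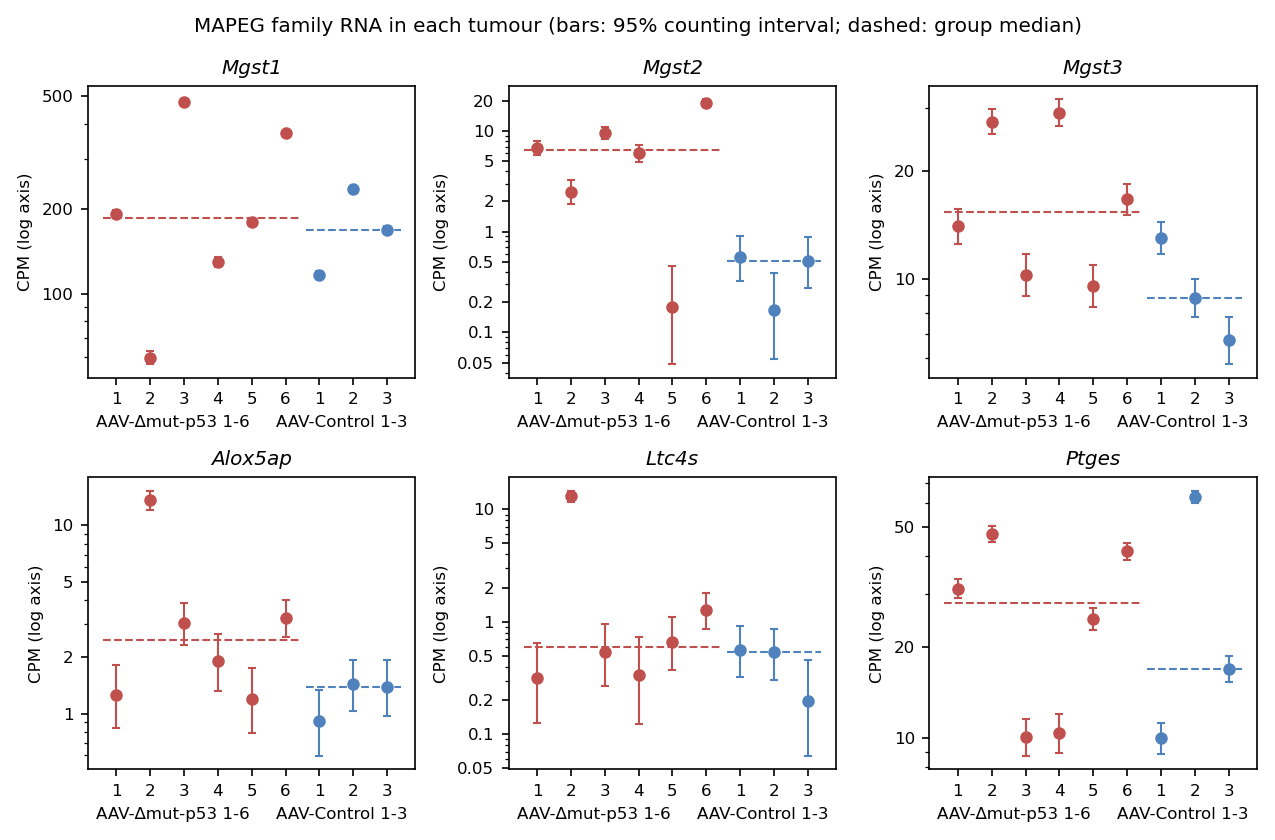
Each panel plots the CPM of 1 MAPEG gene on a log axis in the 6 AAV-∆mut-p53 tumours (red) and the 3 AAV-Control tumours (blue), with 95% Poisson intervals on the count and a dashed line at each group's median. Mgst2 is at 2.49 to 18.9 CPM in 5 AAV-∆mut-p53 tumours and at 0.177 CPM in number 5, while Alox5ap and Ltc4s each stand highest in AAV-∆mut-p53 2.

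Between groups, 5 of the 6 members had a higher mean in AAV-∆mut-p53 tumours and 1, Ptges, had a lower one. Of all 19606 genes tested, 10902 had a positive and 8704 a negative log2 fold change. The counts of higher and lower means in the lists below are to be read beside these. The median log2 fold change of the 6 was 1.30, beside 0.09 over all 19606 genes tested, and without AAV-∆mut-p53 2 it was 0.70. None of the 6 passed an FDR of 0.05, adjusted over all genes, in the quasi-likelihood test of edgeR, and neither did any other gene (0.00%). At an unadjusted p under 0.05 that test held 1 member, Mgst2, on the higher side, as it held 3.82% of all genes, and 0 members on the lower side, as it held 3.26% of genes (7.07% in both directions). DESeq2 called Mgst2, no other member and 0.553% of all genes. All 6 members had overlapping groups. Groups did not overlap in 3.06% of genes, and 1.47% of genes had every AAV-∆mut-p53 tumour higher.

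Mgst2 had the largest log2 fold change of the 6 members. In AAV-∆mut-p53 tumours 1 to 6 it was at 6.79, 2.49, 9.57, 6.03, 0.177 and 18.9 CPM, from 151, 54, 196, 108, 4 and 463 counts. In AAV-Control tumours 1 to 3 it was at 0.562, 0.167 and 0.515 CPM, from 16, 5 and 13 counts. So 5 of 6 AAV-∆mut-p53 tumours lay above every control, and number 5 lay within the control range, with a 95% Poisson interval of 0.0482 to 0.453 CPM that covers counting error only.

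The mean of Mgst2 was 7.32 ± 6.55 CPM (SD, n = 6) in AAV-∆mut-p53 and 0.415 ± 0.216 CPM (SD, n = 3) in AAV-Control tumours. Its log2 fold change was 4.13 (SE 1.21, 95% interval 1.44 to 6.81), with FDR = 0.68 in edgeR's quasi-likelihood test (unadjusted p = 0.00626). DESeq2 gave a log2 fold change of 4.15 with FDR = 0.00879. The DESeq2 call was lost without AAV-Control 1 (FDR = 0.0508) and without AAV-Control 2 (FDR = 0.145), and it held at FDR = 0.0499 without AAV-Control 3 and at 0.0392 or less without any 1 AAV-∆mut-p53 tumour.

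Mgst2 differed within the pair of samples that share a title number. The first of them, AAV-∆mut-p53 4, held 6.03 CPM and the other, number 5, held 0.177 CPM. Without number 5 the log2 fold change of Mgst2 was 4.39, and its unadjusted p in edgeR's test was 0.00043 (FDR = 0.206). With the pair summed into 1 sample the log2 fold change was 4.27 by edgeR (FDR = 0.569) and 4.29 by DESeq2 (FDR = 7.1e-05).

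A separate gene model inside Mgst2 had a similar order of tumours. Gm37261, an unconfirmed transcript model on the same strand that lies within an Mgst2 intron and shares 0 exonic bases with it, held 30, 10, 32, 6, 0 and 86 counts in AAV-∆mut-p53 1 to 6. It held 0, 1 and 3 counts in AAV-Control 1 to 3. Its highest tumours, numbers 6, 3 and 1, were also the highest of Mgst2, in the same order. Its 0 counts allow up to 0.133 CPM in AAV-∆mut-p53 5 and up to 0.105 CPM in AAV-Control 1. The fitted log2 fold change was 4.47 (SE 1.55), which depends on the prior count where libraries are at 0, and it did not pass edgeR's test (FDR = 0.68). The table cannot tell reads of this model from unspliced reads of Mgst2.

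The nearest tested neighbours of Mgst2 did not share its range. Maml3, a transcriptional coactivator gene 3230 bases away on the opposite strand, was at 14.6 to 63.8 CPM in AAV-∆mut-p53 and 31.3 to 56.9 CPM in AAV-Control tumours, with a log2 fold change of -0.31 (SE 0.46). The noncoding transcript 5031434O11Rik, on the other side, had a log2 fold change of 0.58 (SE 0.53). Mgst2 lies on chromosome 3 from 51660360 to 51682677 (ENSMUSG00000074604.9, GRCm38).

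The summed neutrophil markers were also highest in the 3 tumours with most Mgst2, although this did not hold without Ltf or for some single markers. The summed level of the 11 markers was 317, 94.0, 494, 98.7, 70.1 and 535 CPM in AAV-∆mut-p53 1 to 6 and 32.3, 10.2 and 70.2 CPM in AAV-Control 1 to 3. Of the 11, 10 were tested, all 10 had a higher mean in AAV-∆mut-p53 tumours, and 0 passed the FDR threshold of edgeR's test. Ltf, lactoferrin, made up most of the sum in numbers 1, 3 and 6, at 233, 263 and 390 CPM, and without Ltf the sums were 84.1, 87.8, 231, 72.7, 58.6 and 145 CPM in AAV-∆mut-p53 1 to 6 and 26.1, 6.54 and 66.5 CPM in AAV-Control 1 to 3. Number 3 was then the highest, followed by number 6 and by number 2, which lay just above number 1. Of the 10 tested markers, 6 peaked in number 3, against 2 in number 6. In AAV-∆mut-p53 6, the tumour with most Mgst2, the neutrophil calprotectin genes S100a8 and S100a9 were at 6.36 and 11.1 CPM, below the 17.4 and 21.8 CPM of AAV-Control 3, and the surface gene Ly6g was at 0 counts. Which cells the Ltf RNA came from cannot be told from whole tumours, and what part neutrophils had in the Mgst2 values was not tested.

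Mgst1 was the most abundant member in every tumour. It was at 192, 59.6, 479, 130, 180 and 371 CPM in AAV-∆mut-p53 1 to 6 and at 117, 235 and 169 CPM in AAV-Control 1 to 3. AAV-∆mut-p53 3 and 6 lay above all controls, number 2 lay below all of them, and the other 3 lay within the control range. Means were 235 ± 158 CPM (SD, n = 6) in AAV-∆mut-p53 and 174 ± 59.3 CPM (SD, n = 3) in AAV-Control tumours. The log2 fold change of 0.44 (SE 0.58, 95% interval -0.84 to 1.71) did not pass edgeR's test (FDR = 0.86), and it was 0.10 without AAV-∆mut-p53 3, 0.26 without number 6, 0.21 without AAV-Control 1 and 0.73 without AAV-Control 2. Mgst1 lies on chromosome 6 from 138140316 to 138156755 (ENSMUSG00000008540.11, GRCm38).

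The sum of luminal epithelial markers moved with Mgst1 at its extremes among AAV-∆mut-p53 tumours, but not every single marker did. Their sum was 361 CPM in number 2, where Mgst1 was lowest, and 2540 and 3935 CPM in numbers 3 and 6, where it was highest. The order was reversed in the controls, where AAV-Control 1 had the highest luminal sum, 3068 CPM, with the lowest Mgst1, and AAV-Control 2 the lowest luminal sum, 1256 CPM, with the highest Mgst1. Esr1 and Prlr, both on the luminal list, were instead highest of their group in AAV-∆mut-p53 2, at 71.8 and 103 CPM. Of the 8 luminal markers, all of them tested, 3 had a higher and 5 a lower mean in AAV-∆mut-p53 tumours, and 0 passed edgeR's test. Their part in the Mgst1 values was not tested. In whole tumours, fewer cells of a type and less RNA per cell cannot be told apart.

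Mgst3 had a higher mean in AAV-∆mut-p53 tumours and a narrower range than Mgst2. It was at 14.0, 27.4, 10.3, 29.1, 9.56 and 16.7 CPM in AAV-∆mut-p53 1 to 6. In AAV-Control 1 to 3 it was at 13.0, 8.84 and 6.73 CPM. Numbers 1, 2, 4 and 6 lay above every control, numbers 3 and 5 lay within the control range, and none lay below. Number 1 lay above within counting error, as its 95% Poisson interval of 12.5 to 15.6 CPM covers the highest control. The log2 fold change was 0.91 (SE 0.47, 95% interval -0.14 to 1.95), with FDR = 0.68 by edgeR and 0.507 by DESeq2. Within the pair that shares a title number, number 4 held 29.1 CPM and number 5 held 9.56 CPM, the highest and the lowest of the group.

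The highest tumours differed among the transferases: number 3 for Mgst1, number 6 for Mgst2 and number 4 for Mgst3. The ratio of the highest to the lowest of the 9 tumours was 8.03 for Mgst1, 113 for Mgst2 and 4.32 for Mgst3. On the log2 CPM scale those ranges were at the 67.4, 95.9 and 46.3 percentiles of all tested genes. Aldh9a1, an aldehyde dehydrogenase gene 3434 bases from Mgst3, was at 36.9 to 52.2 CPM in AAV-∆mut-p53 and 38.4 to 51.5 CPM in AAV-Control tumours, with a log2 fold change of 0.06 (SE 0.24). Mgst3 lies on chromosome 1 from 167371966 to 167393841 (ENSMUSG00000026688.5, GRCm38).

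The leukotriene members stood highest in the single tumour rich in muscle. Alox5ap was at 1.26, 13.6, 3.03, 1.90, 1.19 and 3.22 CPM in AAV-∆mut-p53 1 to 6 and at 0.913, 1.43 and 1.39 CPM in AAV-Control 1 to 3. Numbers 2, 3, 4 and 6 lay above all controls and numbers 1 and 5 lay within the control range. Number 4 lay above within counting error, as its 95% Poisson interval of 1.31 to 2.65 CPM covers the highest control. Ltc4s was at 0.315, 13.0, 0.537, 0.335, 0.664 and 1.26 CPM in AAV-∆mut-p53 1 to 6 and at 0.562, 0.534 and 0.198 CPM in AAV-Control 1 to 3. Outside number 2 its counts were between 5 and 31 in every tumour, and numbers 5 and 6 lay above the controls as well. Number 5 did so within counting error, as its 95% Poisson interval of 0.372 to 1.09 CPM covers the highest control.

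Neither leukotriene member passed edgeR's test, and both differences shrank without AAV-∆mut-p53 2. With all tumours, the log2 fold change was 1.69 for Alox5ap (SE 0.86, FDR = 0.68) and 2.62 for Ltc4s (SE 1.39, FDR = 0.68). Without that tumour the log2 fold changes were 0.77 for Alox5ap (FDR = 0.68) and 0.53 for Ltc4s (FDR = 0.83). The mean of Alox5ap in AAV-∆mut-p53 tumours was 4.04 ± 4.78 CPM (SD, n = 6) with it and 2.12 ± 0.959 CPM (SD, n = 5) without it, against 1.24 ± 0.288 CPM (SD, n = 3) in AAV-Control tumours. That of Ltc4s was 2.69 ± 5.08 CPM (SD, n = 6) with it and 0.623 ± 0.386 CPM (SD, n = 5) without it, against 0.431 ± 0.202 CPM (SD, n = 3) in AAV-Control tumours. DESeq2 set no p for Ltc4s with all tumours, and gave FDR = 0.419 for Alox5ap.

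AAV-∆mut-p53 2 also had the highest marker sums of macrophages, of eosinophils, of B and plasma cells (690 CPM, against 30.6 to 423 CPM in the others of its group and 25.4 to 38.4 CPM in AAV-Control tumours), and of the mast cell markers other than Kit and Gata2. Its macrophage and monocyte sum was 4263 CPM, against 502 to 1727 CPM in the other AAV-∆mut-p53 tumours and 757 to 1131 CPM in AAV-Control tumours, and 11 of those 12 markers were highest there. All 12 had a higher mean in AAV-∆mut-p53 tumours and 0 passed edgeR's test. Without AAV-∆mut-p53 2, Mrc1, Lyz2 and Ccr2 averaged 68.4, 312 and 13.7 CPM in its group. Their AAV-Control means were higher, at 129, 325 and 19.4 CPM. The other markers of the list kept a higher mean without number 2. The mast cell protease gene Cpa3 was at 31.1 CPM in that tumour, 0.0815 to 2.08 CPM in the other AAV-∆mut-p53 tumours and 1.33 to 3.79 CPM in AAV-Control tumours.

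For the 8 mast cell markers other than Kit and Gata2, the sum was 97.0 CPM in AAV-∆mut-p53 2, 3.71 to 13.3 CPM in the others of its group and 5.94 to 10.7 CPM in AAV-Control tumours. With Kit, which was at 569.6 CPM in AAV-∆mut-p53 1, the full list of 10 summed to 128 to 580 CPM in AAV-∆mut-p53 and 130 to 439 CPM in AAV-Control tumours, lowest in AAV-∆mut-p53 2, and 6 of its 7 tested members had a higher mean. Eosinophil markers summed to 62.8 CPM in number 2, while Epx, the eosinophil peroxidase gene, had 3 counts there. Of the other lists, 7 of 7 tested B and plasma cell markers, 9 of 9 skeletal muscle markers, 6 of 8 adipocyte markers and 4 of 8 fibroblast markers had a higher mean in AAV-∆mut-p53 tumours, as did 3 of 6 T cell, 3 of 7 basal epithelial and 1 of 7 endothelial markers and the 1 tested of 6 eosinophil markers, and 0 passed edgeR's test. Without AAV-∆mut-p53 2 the 4 fibroblast markers counted as higher, Col1a2, Col3a1, Dcn and Fap, had lower means than in AAV-Control tumours. The means of Cd79a, Cd79b, Pax5, Adipoq, Plin1, Myh4, Ccr3 and Tek were then also lower. So were those of the mast cell genes Cpa3, Cma1, Mcpt4 and Tpsb2. Every other marker counted here as higher stayed higher. Which cells the Kit RNA came from was not measured. The part of macrophages, mast cells, muscle or other cells in the values of Alox5ap and Ltc4s was not tested.

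Both leukotriene members overlap an antisense gene. Gm19719, antisense to Alox5ap with 189 shared exonic bases, had 86 counts in AAV-∆mut-p53 2 and 4 to 10 in the other tumours. Gm26542, antisense to Ltc4s with 268 shared bases, had 90 counts there and 10 to 41 elsewhere. The libraries were made with a strand-specific kit, but how strand was used in counting is not given, so reads of these partners cannot be told apart with certainty. Alox5ap lies on chromosome 5 from 149264767 to 149288153 and Ltc4s on chromosome 11 from 50236461 to 50238616 (GRCm38). Mgat4b, a glycosyltransferase gene 1358 bases from Ltc4s, was at 12.9 to 44.0 CPM in AAV-∆mut-p53 tumours and 9.78 to 25.1 CPM in AAV-Control tumours, and its log2 fold change was 0.29 (SE 0.45).

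Ptges varied more within the controls than between the group means. It was at 31.3, 47.6, 10.06, 10.4, 24.8 and 41.6 CPM in AAV-∆mut-p53 1 to 6. It was at 10.01, 63.1 and 17.0 CPM in AAV-Control 1 to 3, so that the lowest and the highest of the 9 tumours were both controls, although AAV-∆mut-p53 3 lay within the counting error of the lowest. Means were 27.6 ± 15.6 CPM (SD, n = 6) in AAV-∆mut-p53 and 30.0 ± 28.8 CPM (SD, n = 3) in AAV-Control tumours. The log2 fold change of -0.12 (SE 0.66, 95% interval -1.57 to 1.33) did not pass edgeR's test (FDR = 0.97), and it was 1.04 without AAV-Control 2, the highest tumour. Ptges lies on chromosome 2 from 30889471 to 30929863 (ENSMUSG00000050737.13, GRCm38).

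**Figure D2:**
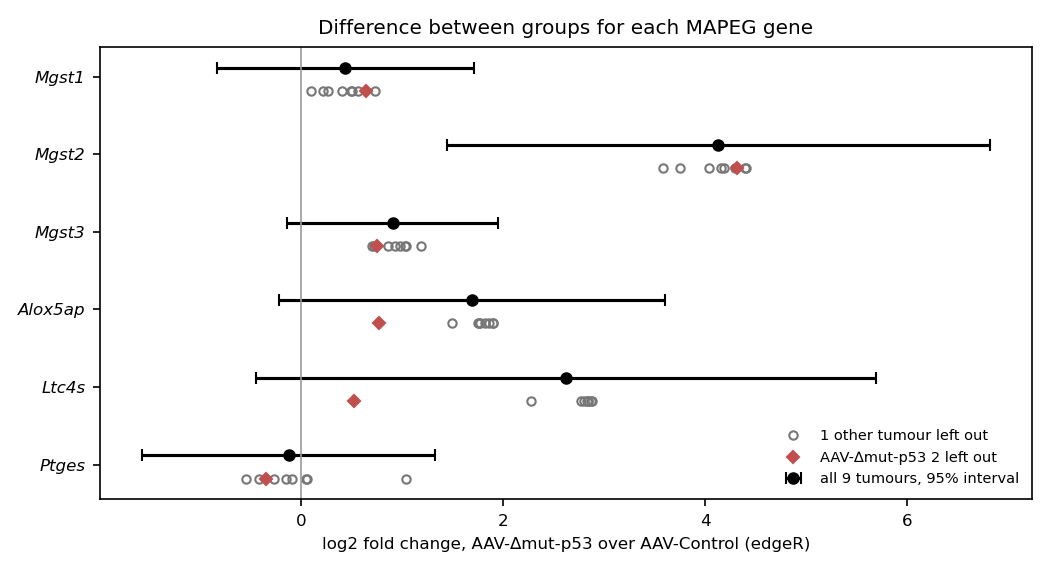
For each MAPEG gene the black point is edgeR's log2 fold change, AAV-∆mut-p53 over AAV-Control, with its 95% interval over all 9 tumours, and the symbols under it are the values with 1 tumour left out (red diamond: AAV-∆mut-p53 2 left out). The interval of Mgst2 lies between 1.44 and 6.81, the other 5 intervals cross 0, and Ltc4s is at 2.62 with all tumours and at 0.53 without AAV-∆mut-p53 2.

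Levels of the members relative to each other were compared as CPM per kilobase of exon, over the union of each gene's annotated exons. That union was 3931 bases for Ptges and 3703 for Mgst2, against 1014 to 2013 for the others. The length of the transcripts expressed was not measured, so the order and the shares below depend on the annotated lengths. The medians over the 9 tumours were 89.3 for Mgst1, 11.8 for Mgst3, 6.30 for Ptges, 1.01 for Alox5ap, 0.674 for Mgst2 and 0.530 for Ltc4s. Mgst1 lay above Mgst3 in 9 of 9 tumours, and their ranges did not overlap. Mgst3 lay above Ptges in 8 of 9 tumours and Ptges above Alox5ap in 9 of 9, with overlapping ranges in both cases. Alox5ap and Mgst2, with Alox5ap higher in 5 of 9, and Mgst2 and Ltc4s, with Mgst2 higher in 4 of 9, had no clear order.

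As a share of the summed CPM per kilobase of the family, Mgst1 made up 33.0% to 93.3% in AAV-∆mut-p53 and 78.7% to 87.7% in AAV-Control tumours. The share of 33.0% was that of AAV-∆mut-p53 2, where Mgst3 made up 27.8%, Ltc4s 14.3%, Ptges 13.5% and Alox5ap 10.7%. In the other AAV-∆mut-p53 tumours Mgst1 made up at least 66.6%. The share of Mgst2 was 0.0452% to 2.33% in AAV-∆mut-p53 and 0.0316% to 0.206% in AAV-Control tumours. The sum itself was 89.9 to 255 CPM per kilobase in AAV-∆mut-p53 and 73.7 to 142 CPM per kilobase in AAV-Control tumours.

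**Figure D3:**
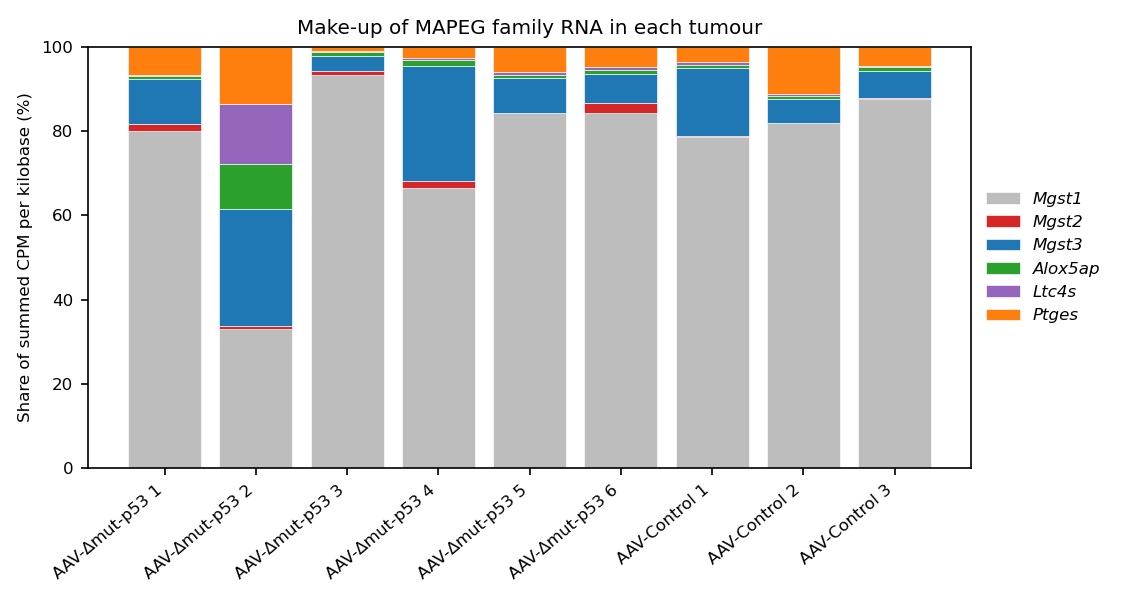
Stacked bars give the share of each MAPEG gene in the family's summed CPM per kilobase of exon, in percent, in each of the 9 tumours. Mgst1 holds 66.6% or more of every bar except that of AAV-∆mut-p53 2, where it holds 33.0% and Alox5ap and Ltc4s become visible.

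The other enzymes of glutathione conjugation are the cytosolic and mitochondrial glutathione transferases. Of 24 listed genes, 19 were tested, 14 with a higher and 5 with a lower mean in AAV-∆mut-p53 tumours. None passed edgeR's FDR threshold, and an unadjusted p under 0.05 was reached by 2 on the higher and 1 on the lower side. DESeq2 called 0 of them but set no adjusted p for Gsta3. Their median log2 fold change was 0.52, and 0.21 without AAV-∆mut-p53 2. Gsta3, an alpha-class transferase, was at 1.98, 5.04, 7.47, 1.51, 1.73 and 68.2 CPM in AAV-∆mut-p53 1 to 6 and at 0.176, 0.367 and 0.475 CPM in AAV-Control 1 to 3. It was the 1 listed transferase of 19 tested whose groups did not overlap. Among all genes tested 3.06% did not overlap, and 1.47% had every AAV-∆mut-p53 tumour higher. The log2 fold change of Gsta3, 5.38 (SE 1.61, FDR = 0.68 by edgeR), was 3.37 without AAV-∆mut-p53 6.

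Gstt1, a theta-class transferase, was highest in AAV-∆mut-p53 3, at 80.8 CPM, and ranged from 3.60 CPM upwards in that group, against 1.40 to 7.33 CPM in AAV-Control tumours. Its log2 fold change was 2.76 (SE 1.02, FDR = 0.68 by edgeR), and it was 1.94 without AAV-∆mut-p53 3 and 3.67 without AAV-Control 3. Gstt3 was at 5.93 to 33.3 CPM in AAV-∆mut-p53 and 7.59 to 9.47 CPM in AAV-Control tumours, with 4 of 6 AAV-∆mut-p53 tumours above and 2 below every control (log2 fold change 1.06, FDR = 0.68 by edgeR). Gstm7, a mu-class member, had a lower mean, at 2.25 to 5.71 CPM in AAV-∆mut-p53 and 3.54 to 13.1 CPM in AAV-Control tumours, with a log2 fold change of -1.21 (SE 0.52, FDR = 0.68 by edgeR) that was -0.76 without AAV-Control 3. The groups overlapped for Gstt1, Gstt3 and Gstm7. Reads of alpha-, mu- and theta-class genes can be shared among close copies.

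The leukotriene pathway outside the family had 12 tested genes of 14 listed, with 8 higher and 4 lower means in AAV-∆mut-p53 tumours. None passed edgeR's threshold, and 1 reached an unadjusted p under 0.05. DESeq2 called 0 of them but set no adjusted p for Cysltr1 or Cysltr2. Without AAV-∆mut-p53 2 there were 5 higher and 6 lower among 11 tested, and the median log2 fold change was -0.01 in place of 0.50. Both receptors of cysteinyl leukotrienes, the products made from leukotriene C4, were highest in that tumour. Cysltr1 was at 65.7 CPM there, at 2.83 to 7.13 CPM in the other AAV-∆mut-p53 tumours and at 2.77 to 11.3 CPM in AAV-Control tumours, and its log2 fold change of 1.37 (SE 1.08, FDR = 0.75 by edgeR) was -0.16 without it. Cysltr2 was at 40.2 CPM there, at 0.163 to 1.02 CPM in the others of its group and at 0.246 to 0.753 CPM in AAV-Control tumours, and without that tumour it was too low to be tested. In that tumour 5 of the 12 tested pathway genes were at their highest, where 19.9% of all tested genes were.

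Lta4h, which encodes the hydrolase that makes leukotriene B4 from leukotriene A4 in place of C4, was at 60.1, 63.4, 80.4, 92.8, 53.1 and 97.3 CPM in AAV-∆mut-p53 1 to 6. It was at 50.6, 34.6 and 54.0 CPM in AAV-Control 1 to 3. Only AAV-∆mut-p53 5 lay within the control range, and the log2 fold change was 0.68 (SE 0.30, FDR = 0.68 by edgeR). Ltb4r2, a leukotriene B4 receptor gene, was at 0 to 0.856 CPM in AAV-∆mut-p53 and 0.396 to 1.30 CPM in AAV-Control tumours, where 0 counts in AAV-∆mut-p53 3 allow up to 0.147 CPM. Alox5, 5-lipoxygenase, the partner of FLAP, was at 5.10 ± 5.22 CPM (SD, n = 6) in AAV-∆mut-p53 and 3.14 ± 1.25 CPM (SD, n = 3) in AAV-Control tumours with a log2 fold change of 0.70 (FDR = 0.83 by edgeR). Its highest value was 15.2 CPM in AAV-∆mut-p53 2, and without that tumour the AAV-∆mut-p53 mean was 3.09 ± 1.93 CPM (SD, n = 5).

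Of 20 prostaglandin pathway genes, 18 were tested, with 14 higher and 4 lower means in AAV-∆mut-p53 tumours. None passed edgeR's threshold, and 3 reached an unadjusted p under 0.05, all on the higher side. DESeq2 called 0 of them but set no adjusted p for Ptgds. The median log2 fold change was 0.89, and 0.36 without AAV-∆mut-p53 2. Ptger2, a prostaglandin E2 receptor, was at 6.61, 10.03, 7.47, 2.34, 0.177 and 1.26 CPM in AAV-∆mut-p53 1 to 6 and at 0.316, 0.200 and 0.792 CPM in AAV-Control 1 to 3. AAV-∆mut-p53 5, which held least Mgst2 of its group, lay below every control, but only within counting error. It held 4 counts of Ptger2, against 6 in AAV-Control 2. The other 5 lay above every control, and the log2 fold change was 3.40 (SE 1.16, FDR = 0.68 by edgeR, 0.0637 by DESeq2). Ptgds, a prostaglandin D synthase, reached 116 CPM in AAV-∆mut-p53 6, against 0.970 to 11.6 CPM in the others of its group and 0.211 to 1.66 CPM in AAV-Control tumours, and its log2 fold change of 4.60 (SE 1.76, FDR = 0.68 by edgeR) was 2.20 without number 6.

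Ptgs1, cyclooxygenase 1, which supplies the substrate of Ptges, was at 6.64 to 55.0 CPM in AAV-∆mut-p53 and 5.76 to 9.27 CPM in AAV-Control tumours, with a log2 fold change of 1.61 (SE 0.72, FDR = 0.68 by edgeR). Hpgds, the other prostaglandin D synthase and itself a glutathione transferase, was at 58.6 CPM in AAV-∆mut-p53 2, 15.6 to 24.2 CPM in the others of its group and 9.57 to 20.1 CPM in AAV-Control tumours. Its log2 fold change of 0.76 (SE 0.49, FDR = 0.70 by edgeR) was 0.35 without that tumour. The ratio of the highest to the lowest tumour was 6.30 for Ptges, 3.26 for Ptges2 and 2.82 for Ptges3, the prostaglandin E synthase genes outside the family. Ptges2 averaged 29.2 CPM in AAV-∆mut-p53 and 24.6 CPM in AAV-Control tumours, and Ptges3 averaged 88.4 CPM in AAV-∆mut-p53 and 85.4 CPM in AAV-Control tumours.

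**Figure D4:**
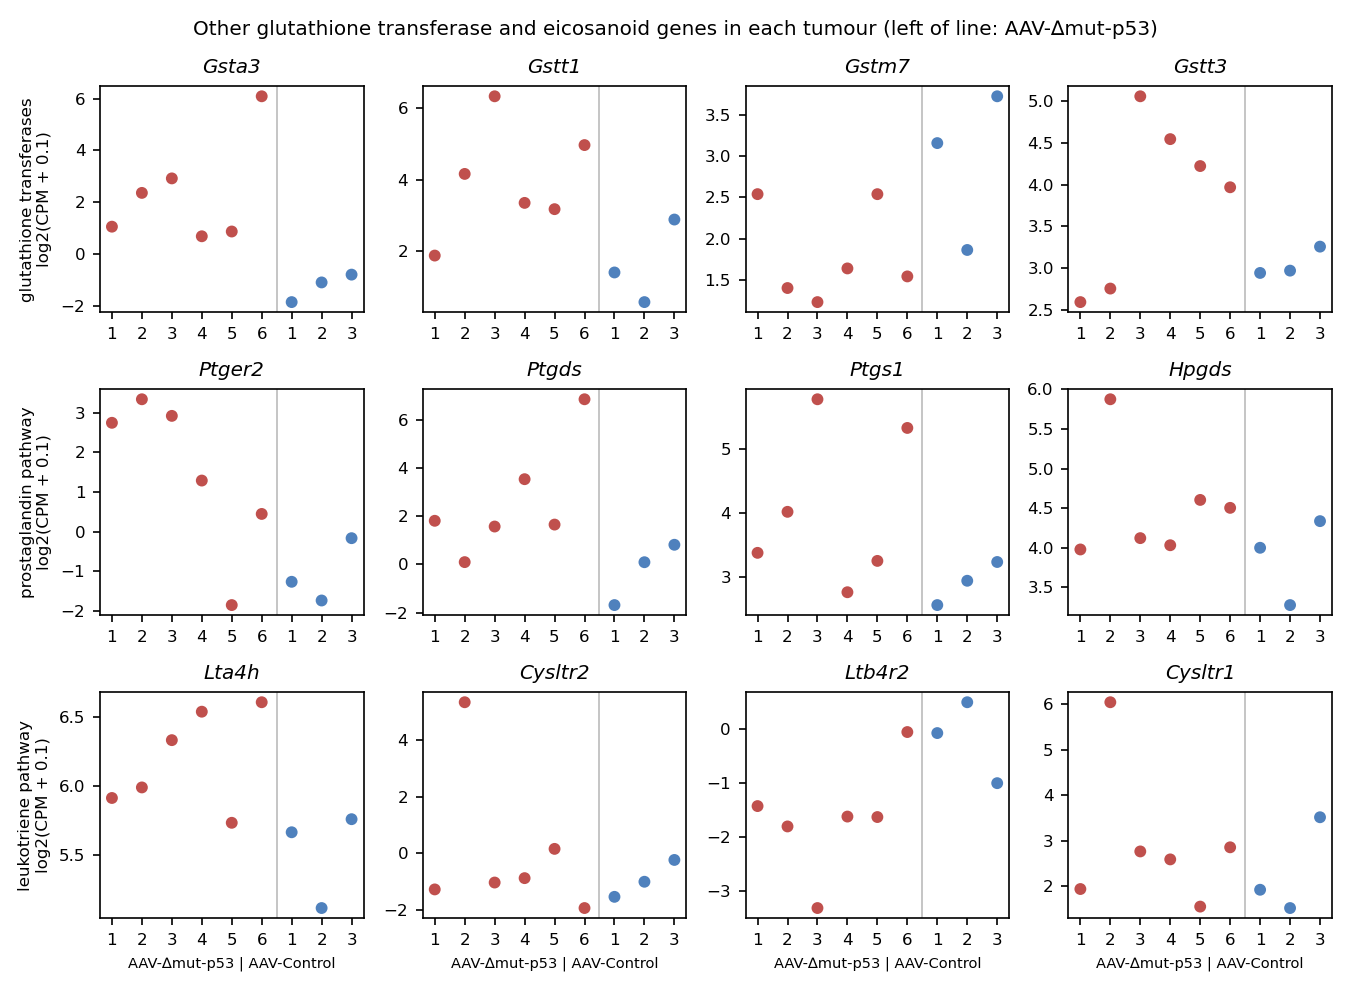
Points give log2(CPM + 0.1) in each tumour, AAV-∆mut-p53 1 to 6 left of the line in red and AAV-Control 1 to 3 right of it in blue, for the 4 genes with the smallest unadjusted p of each list. Gsta3 is the 1 gene shown whose groups do not overlap, beside 3.06% of all genes tested. Cysltr1, Cysltr2 and Hpgds stand highest in AAV-∆mut-p53 2.

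**Figure D5:**
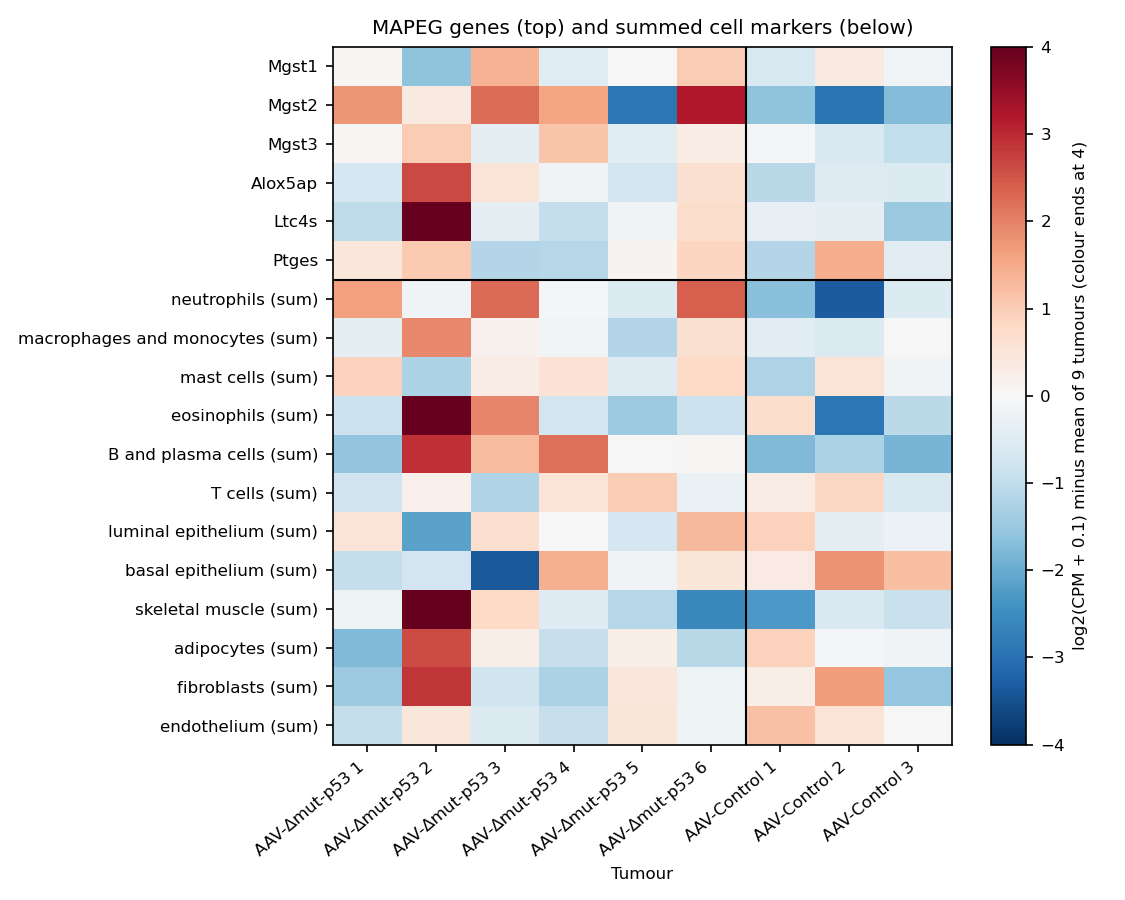
Colours give log2(CPM + 0.1) minus its mean over the 9 tumours for the 6 MAPEG genes (top) and for the summed CPM of 12 marker lists (below), with AAV-∆mut-p53 tumours left of the line. Alox5ap and Ltc4s are highest in AAV-∆mut-p53 2 together with muscle, macrophage, eosinophil, B and plasma cell, adipocyte and fibroblast sums, and Mgst2 is highest in number 6, where the neutrophil sum is also highest with Ltf but not without it.

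The genes whose pattern was closest to each member were found by the root mean square difference of mean-centred log2 CPM over the 9 tumours, among the 11608 or 11609 other genes averaging 5 CPM or more. For Mgst1 they included Bard1 (0.26) and Lpar2, a lysophosphatidic acid receptor gene (0.30). For Mgst2 they were Aqp9, an aquaglyceroporin gene (0.83), the cytokine gene Lif (0.92) and Apol7a (0.92), and Mgst2 itself had an SD of 2.37 on that scale. For Mgst3 they were Slc7a6, an amino acid transporter gene (0.23), Map1s (0.29) and Mtln, which encodes a mitochondrial micropeptide (0.33).

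For Alox5ap the closest genes were March1 (0.20), Nfam1 (0.20) and Rac2 (0.24), all known from white blood cells. For Ltc4s they were Fn1, fibronectin (0.38), Daglb (0.46) and Tfpi2 (0.48). For Ptges they were Amot (0.45), Cdkn1a, which encodes the cell cycle inhibitor p21 (0.45), and Fam20c (0.50). With 9 tumours and this many candidates, some genes lie close to any pattern, and the distances describe these samples.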

How the data were processed

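RNA sequencing of 9 flash-frozen tumours used total RNA and a strand-specific kit, per the labels' protocols. Raw gene counts, as whole numbers in a single table, are what the authors deposited, and they were used unchanged. The submitters' processing notes name STAR 2.6.0b, DESeq2 and GRCm38 without saying what each did. No source used here gives the counting program, strand setting or annotation release. Symbols were found for 49326 of 49585 identifiers, and positions and exon lengths came from GENCODE M21 on GRCm38.

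Genes were filtered with filterByExpr (minimum count 10), which left 19606, and scaled by TMM. The main test was the quasi-likelihood test of edgeR 4.0.16 (R 4.3.3), 2-sided, on group alone, with Benjamini-Hochberg adjustment over all genes. SE is the log2 fold change divided by the square root of F. DESeq2 1.42.0, limma 3.58.1 (voom with sample quality weights) and sva 3.50.0 gave alternatives, as did other scalings and filters and leaving out each tumour. The tests were run on simulated counts without an outlying tumour. The only requirement there was that median log2 fold changes lay near those set, which does not judge false calls.

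The members, 3 pathway lists and 12 marker lists were chosen with earlier results of these data known. Named genes are the 4 with the smallest p of each pathway list, the genes that overlap a member or lie next to it, and the 3 closest to each member in pattern, of which 1 is not reported here; Alox5, Ptges2, Ptges3 and single markers were added after their values were seen. Poisson intervals and the limit that 0 counts allow, set at 3 counts, cover counting error only. No libraries were alike within sampling noise (smallest chi-square per degree of freedom 117 over 36 pairs).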

Additional observations from a re-analysis of the deposited data

Results flagged for a closer look

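A check of 30 groups of 6 AAV-∆mut-p53 values for a tumour far from the others marked 14. For independent, normally distributed values chance marks about 1 in 20, but CPM values are skewed and most of the marks come from AAV-∆mut-p53 2, so the number of marks is not evidence of an excess. In AAV-∆mut-p53 2 Alox5ap was marked at 13.6 CPM (the next tumour of its group held 3.22 CPM). Marked there too were Ltc4s at 13.0 CPM (1.26 CPM), Hpgds at 58.6 CPM (24.2 CPM) and Cysltr1 at 65.7 CPM (7.13 CPM). Cysltr2 was marked at 40.2 CPM (1.02 CPM). The summed markers of macrophages and monocytes at 4263 CPM (1727 CPM), eosinophils at 62.8 CPM (6.55 CPM), skeletal muscle at 40069 CPM (397 CPM), adipocytes at 540.5 CPM (105 CPM) and fibroblasts at 16760 CPM (3180 CPM) were marked in the same tumour. In AAV-∆mut-p53 6 the marked values were Gsta3 at 68.2 CPM (7.47 CPM), Ptgds at 116 CPM (11.6 CPM) and Ltb4r2 at 0.856 CPM (0.270 CPM). In AAV-∆mut-p53 3 Gstt1 was marked at 80.8 CPM (31.3 CPM). Mgst1, Mgst2, Mgst3 and Ptges had no marked tumour. AAV-Control tumours were not in this check. Ltb4r2 was above its marked value in AAV-Control 2, at 1.30 CPM. Controls also lay nearer to some marked values than the bracketed tumours did. They were Cysltr1 at 11.3 CPM in AAV-Control 3, fibroblasts at 7308 CPM in AAV-Control 2 and adipocytes at 165 CPM in AAV-Control 1.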

How the results depend on the processing

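Mgst1, Mgst2, Mgst3, Alox5ap and Ltc4s kept a positive log2 fold change under every alternative run, and edgeR and voom called none of the 6 members in any of them. In edgeR, leaving out 1 tumour gave log2 fold changes of 0.10 to 0.73 for Mgst1, 3.58 to 4.41 for Mgst2, 0.70 to 1.19 for Mgst3, 0.77 to 1.90 for Alox5ap, 0.53 to 2.88 for Ltc4s and -0.55 to 1.04 for Ptges. Ptges turned to higher without AAV-∆mut-p53 3 (0.05) or 4 (0.06), without AAV-Control 2 (1.04) and in limma voom with quality weights (0.45), and the cause was not tested. Voom gave 2.97 for Mgst2 and 0.53 for Ltc4s, and 1 surrogate variable gave 0.64 for Ltc4s and 0.86 for Alox5ap. Ltc4s was not tested under the stricter filter of 50 counts in at least 3 libraries. Over all genes edgeR called 0 in each alternative, with 1387 at an unadjusted p under 0.05 with all tumours, and DESeq2 called 104. DESeq2 called Mgst2 with a log2 fold change of 4.15. In DESeq2 runs added after seeing the data, 1 tumour left out gave 49 to 543 calls over all genes, and Mgst2 passed in 7 of 9 runs, with log2 fold changes of 3.61 to 4.43. With the pair of samples that share a title number summed, DESeq2 made 210 calls and gave 4.29 for Mgst2. Ptges ran from -0.54 to 1.04 in the DESeq2 runs without 1 tumour. No paired analysis was possible because the titles give the groups no shared replicate numbers. Members under about 20 counts per library, such as Mgst2 in controls and Ltc4s, are limited by depth.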
